A study of Mus musculus with 6 samples.

Results

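Genes that direct the formation of neutrophils, monocytes and macrophages are described here across 6 microarrays of cultured mouse bone marrow cells. They are the transcription factor genes Spi1, Cebpa, Cebpb, Cebpd, Gfi1 and Klf4 and the cytokine receptor genes Csf3r, Csf2ra, Csf2rb and Il6ra, 10 of the 18193 genes with a probe set of their own on the array. Every probe set that the array annotation gives to 1 of these symbols alone was taken, which made 16 of the 45037 probe sets other than controls. Of the 10 genes, 4 had 1 probe set and 6 had 2, and all 16 probe sets passed the filter on low signal.

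The arrays DKO 1, DKO 2 and DKO 3 held RNA of bone marrow cells from Cry 1/2 double KO mice, and WT 1, WT 2 and WT 3 held RNA of bone marrow cells from wild-type mice. All 6 samples were of strain C57BL/6 and were cultured with 10 ng/ml interleukin-7 and 20% fetal bovine serum. Cry1 and Cry2 encode cryptochromes, which repress the circadian clock, and interleukin-7 favours B lymphocyte precursors in culture. The sources used here do not give the age or sex of the mice, whether animals were pooled, or whether the arrays of a genotype came from separate mice or cultures. The p-values therefore measure the spread among these arrays, and that spread may be technical. The labels name no sort, and in such bulk samples fewer cells of a type and less RNA per cell cannot be told apart.

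PU.1, the product of Spi1, is an ETS family factor that both myeloid and B lymphoid cells need, and it is known to act at a higher level in myeloid cells. The C/EBP factors encoded by Cebpa, Cebpb and Cebpd bind DNA as leucine zipper dimers and, with PU.1, switch on receptors and granule proteins of myeloid cells. Gfi1 is a zinc finger repressor that neutrophils need, and Klf4 is a zinc finger factor that promotes monocytes. The receptors receive granulocyte colony-stimulating factor (Csf3r), granulocyte-macrophage colony-stimulating factor (Csf2ra with the shared chain Csf2rb) and interleukin-6 (Il6ra).

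WT 2 and DKO 3 stood apart from the arrays of their genotype. Across tested probe sets, WT 2 correlated at 0.752 to 0.780 with the other arrays, which correlated at 0.936 to 0.984 among themselves. The Actb control probe set at the 3' end of the transcript gave 824 times the signal of that at the 5' end on WT 2 and 1.47 to 2.05 times elsewhere. The median intensity was 115 on WT 2 and 44.0 to 55.3 on the other arrays, so centring on the median lowered WT 2 relative to them. After centring WT 2 had the lowest value of all arrays in 53.4% of tested probe sets and the highest in 21.6%. For the members these counts were 7 and 3 of 16. DKO 3 was closer to WT 3 (0.984) and WT 1 (0.968) than to DKO 2 (0.952) and DKO 1 (0.936). Cry1 had intensities of 359, 399 and 545 on the DKO arrays, against 1533, 1502 and 955 on the WT arrays, without overlap. Cry2 had 162, 178 and 133 on the DKO arrays, against 145, 102 and 105 on the WT arrays. These intensities overlapped, but after centring every DKO array (7.53 to 7.69) was above every WT array (6.07 to 7.41). Whether the Cry2 probes lie in the deleted part was not analysed here. Member results are given from all 6 arrays and without WT 2, without DKO 3 and without both.

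No member passed the test between genotypes. With all 6 arrays, 0 of the 16 member probe sets had a limma adjusted p at or under 0.05, where 0.0074% of the 27022 tested probe sets did. At an unadjusted limma p at or under 0.05, 2 of the 16 were lower in DKO, 1 of Cebpd and 1 of Il6ra, where 1.31% of all tested probe sets were, and 0 were higher, where 1.81% were. The genotypes did not overlap in 1 of the 16, which was lower in DKO and belonged to Il6ra, where 10.3% of all tested probe sets had no overlap and 3.29% had none and were lower in DKO. Without WT 2 the fit passed 0.0259% of all tested probe sets and 0 members, and without DKO 3 it passed 0% and 0 members. In each of the 16 the difference between genotype means was smaller than the range among the arrays of at least 1 genotype. How many of all tested probe sets meet this was not counted, so it is not read as a trait of the members. An exact permutation test of 3 arrays against 3 cannot reach a p below 0.10.

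**Figure D1:**
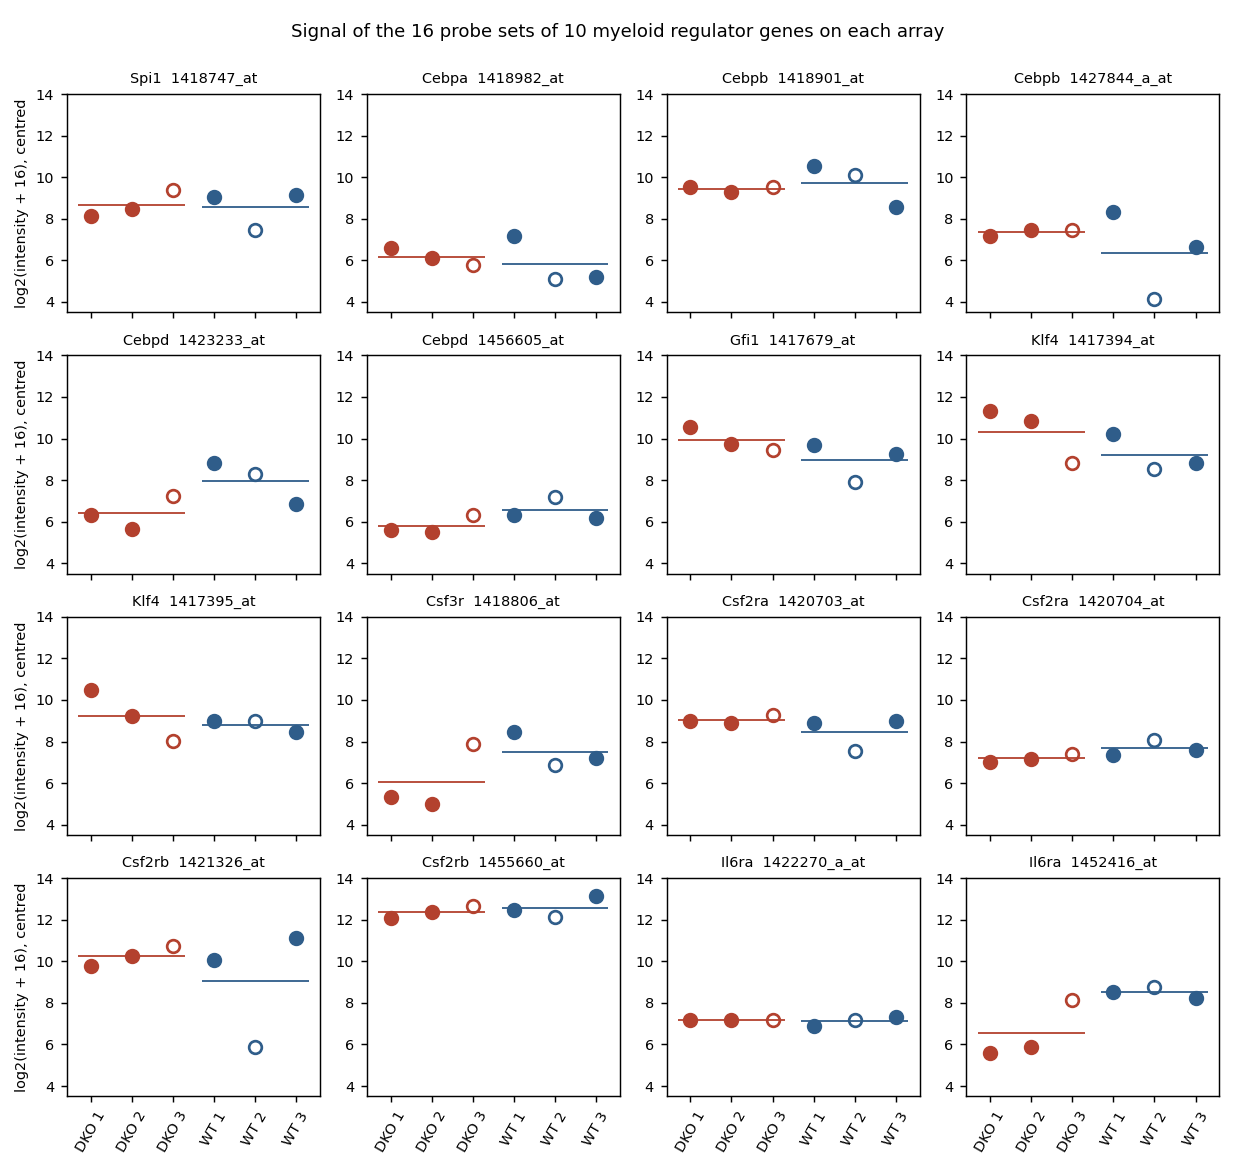
Centred log2(intensity + 16) of the 16 member probe sets on each array, DKO in red at left and WT in blue at right, with lines at the means of 3 arrays and open symbols for DKO 3 and WT 2. Csf3r and the representative Il6ra probe set (bottom right) sit low on DKO 1 and DKO 2 but not DKO 3, and WT 2 lies far below the other arrays for the second probe set of Cebpb and that of Csf2rb.

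Array values are listed in the order 1, 2, 3 within each genotype, as deposited intensities. Means, standard deviations and differences (DKO minus WT) are on the log2(intensity + 16) scale after centring each array on its median. The addition of 16 understates the differences of dim probe sets. On this scale all tested probe sets had a median difference of 0.21, which was -0.015 with quantile normalization and -0.10 without centring, so the sign of a small difference depends on the scaling. A gene with 2 probe sets is represented by the one with the higher mean, and the other is called its second probe set. By representatives, 5 of the 10 members had a lower mean in DKO, where 29.8% of 12627 tested genes did. This count was 7 without WT 2, where 48.3% of tested genes were lower, 6 without DKO 3 (34.1%) and 7 without both (53.9%). The share of all genes depends on the scaling too. With centring 8862 of 12627 tested genes had a higher mean in DKO, and with quantile normalization 6406 of 12591 did.

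RefSeq promoter windows (assembly GRCm38.p6) were used for 7 of the 10 members, 8 windows in all, with those of Spi1, Cebpd and Csf2rb not analysed here, and the 250 bases before each annotated start were searched on both strands. The motifs were CACGTG, an E-box through which CLOCK and BMAL1 act and cryptochromes repress, GAGGAA, a core that PU.1 can bind, and TTGCNNAA, a core that C/EBP factors can bind. Il6ra, Csf3r and Klf4 are printed because, with Cebpd, they had the largest differences among the representatives, and capitals mark the motif matches.
Il6ra (chr3:89913197-89913446, minus strand): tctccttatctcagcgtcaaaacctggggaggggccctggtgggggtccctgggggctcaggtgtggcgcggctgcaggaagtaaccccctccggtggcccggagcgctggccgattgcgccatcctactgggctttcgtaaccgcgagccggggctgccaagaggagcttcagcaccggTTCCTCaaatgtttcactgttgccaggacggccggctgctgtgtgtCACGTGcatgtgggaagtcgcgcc
Csf3r (chr4:126024409-126024658, plus strand): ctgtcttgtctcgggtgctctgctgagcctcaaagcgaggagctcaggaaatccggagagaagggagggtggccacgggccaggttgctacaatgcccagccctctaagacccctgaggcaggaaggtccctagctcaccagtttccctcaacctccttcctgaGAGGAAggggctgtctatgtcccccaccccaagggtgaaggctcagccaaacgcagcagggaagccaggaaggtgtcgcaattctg
Klf4 (chr4:55532476-55532725, minus strand): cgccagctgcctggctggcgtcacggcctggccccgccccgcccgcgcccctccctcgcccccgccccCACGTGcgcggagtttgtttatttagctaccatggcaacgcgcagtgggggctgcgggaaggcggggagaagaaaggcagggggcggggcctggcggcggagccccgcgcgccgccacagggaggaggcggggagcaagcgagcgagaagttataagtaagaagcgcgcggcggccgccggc
Il6ra held CACGTG beginning 24 bases before the start and GAGGAA on the other strand at 70 bases. Csf3r held GAGGAA at 86 bases, and Klf4 held CACGTG at 182 bases. Of the 8 windows, 2 held CACGTG, 3 held GAGGAA and 1 held TTGCNNAA, where 6.02%, 23.3% and 9.56% of all 32851 promoter windows did. The GAGGAA window not printed was that of Csf2ra, with copies at 14 and 8 bases, and the TTGCNNAA match was at 143 bases in 1 window of Gfi1. A match is a run of letters and not a measured site, and no match says only that these letters are not in this window.

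Spi1, the PU.1 gene, overlapped between the genotypes. Its intensities were 253, 313 and 521 on the DKO arrays, against 489, 289 and 448 on the WT arrays. DKO 3 was the highest array, and DKO 1, DKO 2 and WT 2 were the low ones. The mean was 8.66 ± 0.65 in DKO and 8.54 ± 0.96 in WT (SD, n = 3 each), and the difference of 0.12 had a limma standard error of 0.59 and an adjusted p of 0.953. Its sign turned to -0.44 without WT 2 and -0.25 without DKO 3, and the value without both was -0.80 (limma adjusted p 0.119). It was also negative with quantile normalization (-0.24) and without centring (-0.20).

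Cebpa, which the earliest granulocyte and monocyte progenitors need, was dim, and its WT arrays enclosed its DKO arrays. Intensities were 76.5, 48.7 and 27.7 on the DKO arrays, against 118, 44.9 and 14.7 on the WT arrays. WT 1 was the highest array. The difference of 0.33 had a limma standard error of 0.58 and an adjusted p of 0.863. It was 1.00 without WT 1 and -0.022 without WT 2.

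Cebpb, a C/EBP gene of emergency neutrophil production and of macrophages, varied little among DKO arrays and widely among WT arrays. The representative probe set had 692, 562 and 584 on the DKO arrays, against 1399, 1921 and 299 on the WT arrays. All DKO arrays lay between WT 3 and the other WT arrays, and the log2 range was 0.27 in DKO and 1.99 in WT. The difference of -0.29 had a limma standard error of 0.58 and an adjusted p of 0.878, and it was 0.11 without WT 1 and -0.88 without WT 3. The second Cebpb probe set had 121, 150.2 and 127 on the DKO arrays, against 287, 14.6 and 66.7 on the WT arrays. WT 2 was its dimmest array and the brightest of the representative, and the difference of 1.01 (limma standard error 0.95, adjusted p 0.822) was -0.11 without WT 2.

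Cebpd, a C/EBP gene induced by interleukin-6 and granulocyte colony-stimulating factor, had a lower mean in DKO by both probe sets. The representative had 59.8, 31.0 and 107 on the DKO arrays, against 405, 539 and 79.0 on the WT arrays. DKO 1 and DKO 2 were the lowest arrays, and DKO 3 was above WT 3, so the genotypes overlapped. The mean was 6.41 ± 0.81 in DKO and 7.98 ± 1.02 in WT (SD, n = 3 each), a difference of -1.57 with a limma standard error of 0.62, an unadjusted p of 0.0376 and an adjusted p of 0.822. The second Cebpd probe set had 30.4, 27.1 and 48.0 on the DKO arrays, against 60.1, 242 and 43.9 on the WT arrays. DKO 1 and DKO 2 were again lowest, and the difference was -0.75 (limma standard error 0.39, adjusted p 0.822). Over the alternative settings, which numbered 17 for the representative and 16 for the second probe set, these differences stayed between -2.84 and -1.16 and between -1.07 and -0.43.

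Gfi1, the neutrophil repressor gene, had its highest value on DKO 1. Intensities were 1415, 786 and 541 on the DKO arrays, against 765, 413 and 489.9 on the WT arrays. DKO 2 was close to WT 1, and DKO 3 lay among the WT arrays. The difference of 0.95 had a limma standard error of 0.59 and an adjusted p of 0.822, and without WT 2 it was 0.44 (limma adjusted p 0.948).

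Klf4, the monocyte factor gene, was high on DKO 1 and DKO 2 but not DKO 3. The representative probe set had 2408, 1719 and 348 on the DKO arrays, against 1119, 642 and 362 on the WT arrays. DKO 1 and DKO 2 were above every WT array, and DKO 3 had the lowest deposited intensity, while after centring DKO 3 (8.82) was above WT 2 (8.54). The mean was 10.33 ± 1.32 in DKO and 9.20 ± 0.90 in WT (SD, n = 3 each), and the difference of 1.13 had a limma standard error of 0.78 and an adjusted p of 0.822. It was 0.80 without WT 2 (limma adjusted p 0.948), 1.88 without DKO 3 (0.793) and 1.55 without both (0.0843). The second Klf4 probe set had 1327, 539.7 and 197 on the DKO arrays, against 462, 886 and 274 on the WT arrays. Its highest centred values were again on DKO 1 and DKO 2 and its lowest on DKO 3, and the difference of 0.43 (limma adjusted p 0.842) was -0.18 without DKO 1 and -0.032 with quantile normalization.

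Csf3r, the receptor gene through which neutrophils are sustained, was dim on DKO 1 and DKO 2 but not DKO 3. Intensities were 22.2, 13.4 and 171 on the DKO arrays, against 319, 191 and 106 on the WT arrays. DKO 1 and DKO 2 were below every other array, at percentiles 31.1 and 21.5 of all probe sets on the same array, while DKO 3, at percentile 67.4, lay within the WT percentiles of 62.0 to 72.5. The mean was 6.05 ± 1.58 in DKO and 7.51 ± 0.85 in WT (SD, n = 3 each), a difference of -1.46 with a limma standard error of 0.81 and an adjusted p of 0.822. The range among DKO arrays was 2.89, larger than this difference. The difference was -1.78 without WT 2 (limma adjusted p 0.948), -2.37 without DKO 3 (0.452) and -2.69 without both (0.0172).

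Il6ra, the gene of the chain that binds interleukin-6, was also low on DKO 1 and DKO 2 by its representative probe set. It had 30.4, 39.4 and 213 on the DKO arrays, against 337, 749 and 234 on the WT arrays. All DKO arrays were below all WT arrays, yet DKO 3 (8.15 on the centred log2 scale) was next to WT 3 (8.23) and far from DKO 1 (5.60) and DKO 2 (5.88). The mean was 6.54 ± 1.40 in DKO and 8.51 ± 0.27 in WT (SD, n = 3 each), a difference of -1.97 with a limma standard error of 0.67, an unadjusted p of 0.0212 and an adjusted p of 0.822. The exact two-sided permutation p was 0.10, the smallest possible. The difference was -1.84 without WT 2 (limma adjusted p 0.948), -2.77 without DKO 3 (0.215) and -2.65 without both (0.0049). The second Il6ra probe set had 124, 119 and 102 on the DKO arrays, against 95.6, 236 and 117 on the WT arrays. It did not show the low DKO 1 and DKO 2 values, and its difference was 0.06 with a limma 95% interval of -0.58 to 0.71. Which Il6ra transcripts each probe set reads was not analysed here.

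Csf3r and the representative of Il6ra were the 2 of 16 member probe sets with a limma adjusted p at or under 0.05 in the fit without DKO 3 and WT 2. Both were lower in DKO, and that fit passed 4.07% of all tested probe sets, 1.75% lower and 2.31% higher in DKO. It set 2 arrays against 2, and DKO 3 and WT 2 had been left out with values of these genes known. The calls therefore describe DKO 1 and DKO 2 against WT 1 and WT 3 and are no independent test of the genotype.

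**Figure D2:**
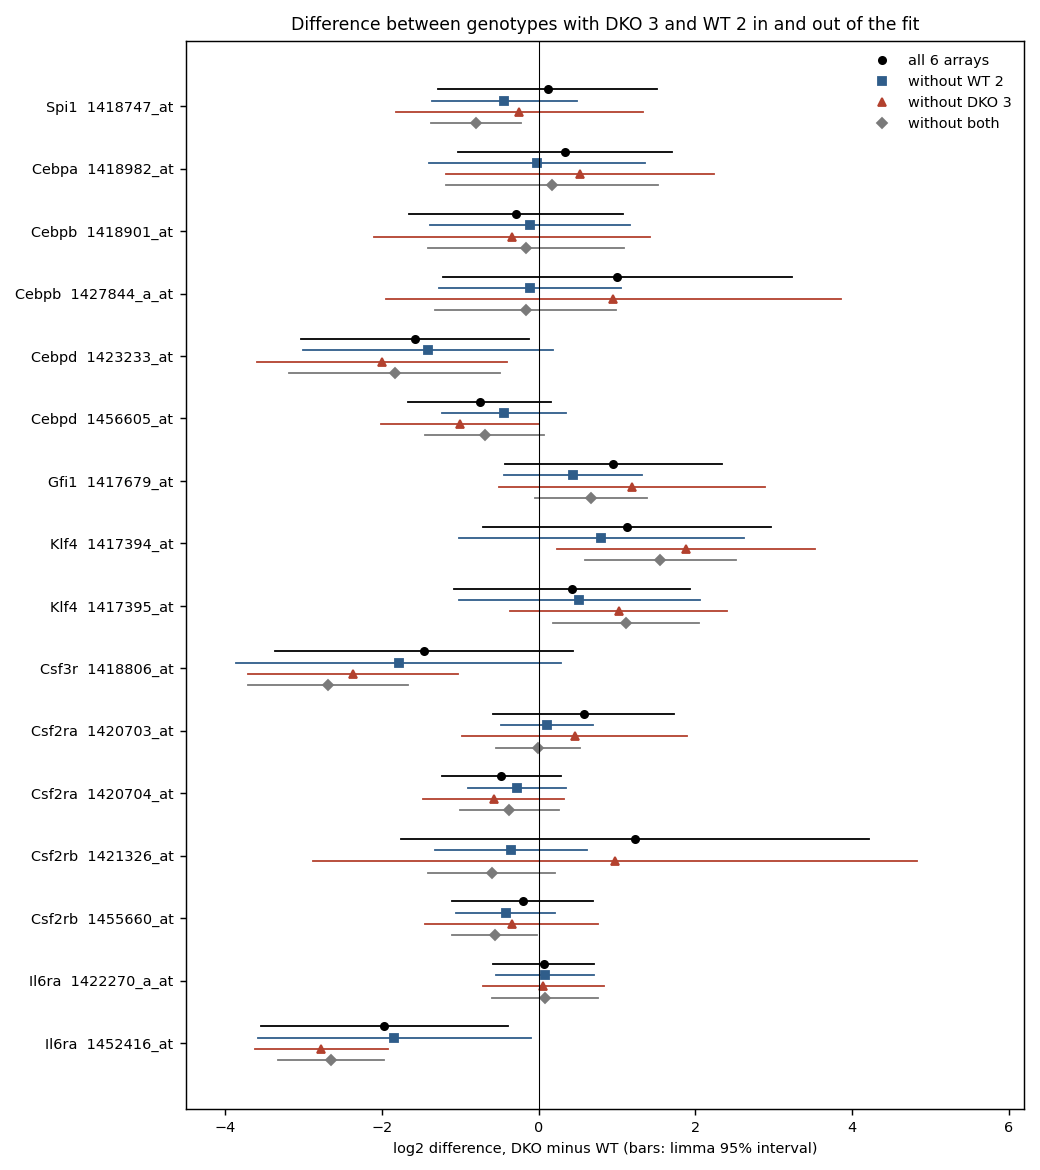
Log2 difference, DKO minus WT, of each member probe set with limma 95% intervals, from all 6 arrays (black circles), without WT 2 (blue squares), without DKO 3 (red triangles) and without both (grey diamonds). Csf3r, both Cebpd probe sets, the representatives of Il6ra, Cebpb and Csf2rb and the second probe set of Csf2ra are negative in all 4 fits. Gfi1, both Klf4 probe sets and the second of Il6ra are positive in all 4. The second probe sets of Cebpb and Csf2rb are positive only where WT 2 is in the fit.

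Csf2ra, the binding chain for granulocyte-macrophage colony-stimulating factor, read nearly alike on 5 arrays. Its representative probe set had 462, 426 and 484 on the DKO arrays, against 429, 308 and 406 on the WT arrays. WT 2 was low and the other arrays lay within 0.40 on the centred log2 scale. The difference of 0.58 had a limma 95% interval of -0.58 to 1.73 and an adjusted p of 0.822, and without WT 2 it was 0.11 with an interval of -0.48 to 0.70. The second Csf2ra probe set had 109, 119 and 119.7 on the DKO arrays, against 138, 461 and 145 on the WT arrays. DKO 1 and DKO 2 were lowest and DKO 3 (7.40) was next to WT 1 (7.35) on the centred scale, with a difference of -0.48, a limma 95% interval of -1.23 to 0.28 and an adjusted p of 0.822.

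Csf2rb, the beta chain shared by the receptors for interleukin-3, interleukin-5 and granulocyte-macrophage colony-stimulating factor, was bright on every array. Its representative probe set had 4172, 4916 and 5176 on the DKO arrays, against 5243, 7962 and 7462 on the WT arrays. The deposited intensities did not overlap, but the centred values did, with WT 1 and WT 2 then among the DKO arrays. The difference was -0.20 with a limma 95% interval of -1.11 to 0.70 and an adjusted p of 0.873, and it was -0.52 without centring, -0.42 without WT 2 and 0.075 without WT 3. The second Csf2rb probe set had 816, 1137 and 1374 on the DKO arrays, against 1008, 87.9 and 1864 on the WT arrays. WT 2 was far below the rest, and the difference of 1.22 (limma standard error 1.27, adjusted p 0.822) was -0.35 without WT 2. Csf2rb2, a mouse gene for a close copy of this chain that serves interleukin-3, had 639, 597 and 558 on the DKO arrays, against 649.9, 359 and 970.3 on the WT arrays. How far the probes of Csf2rb and Csf2rb2 read each other's transcripts was not analysed here, so their values are uncertain.

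The 2 probe sets of a member did not always have the same sign. Of the 6 members with 2 probe sets, 4 had differences of opposite sign with all 6 arrays, namely Cebpb, Csf2ra, Csf2rb and Il6ra. Without WT 2 these were Csf2ra and Il6ra, and without WT 2 and DKO 3 Il6ra alone. Opposite signs among all genes with 2 tested probe sets were not counted, so the member counts are not read as particular to the members.

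The order of the arrays was counted for each member probe set. DKO 1 and DKO 2 were the lowest arrays in 5 of the 16 member probe sets, both of Cebpd, Csf3r, the representative of Il6ra and the second of Csf2ra, where 8.55% of all tested probe sets had this order. They were the highest in 3 of the 16, Gfi1 and both of Klf4, where 14.2% of all tested probe sets were so ordered, a share close to that of the members. S100a8 and Csf1r, markers of mature myeloid cells, were also lowest on DKO 1 and DKO 2. S100a8, which neutrophils express strongly, had 190.0, 186 and 10377 on the DKO arrays, against 24759.5, 94059 and 8306 on the WT arrays, and was at 0 on no array. Csf1r, the macrophage colony-stimulating factor receptor gene, had 1012, 910.0 and 2703 on the DKO arrays, against 7067, 26294 and 1819 on the WT arrays. For both, DKO 3 lay within the WT range.

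The summed granulocyte list was also lowest on DKO 1 and DKO 2, and the summed macrophage and B lineage lists were not. By list medians the macrophage list was lowest there too. The 14 tested granulocyte markers summed to 1493, 1811 and 29681 on the DKO arrays, against 82283, 189071 and 20146 on the WT arrays. All 14 had a lower mean in DKO, with a median difference of -2.22, where 29.8% of all tested genes had a lower mean. Of the 14, 0 passed at the limma adjusted threshold. At an unadjusted limma p at or under 0.05, 6 were lower, where 1.31% of all tested probe sets were. The smallest p were those of S100a8 (-4.84) and S100a9 (-4.97). The 16 macrophage and monocyte markers summed to 27128, 18409 and 33421 on the DKO arrays, against 58136, 110471 and 22568 on the WT arrays. WT 3 was below DKO 1 and DKO 3 in this sum, to which bright genes add most. Relative to the average array, the median of this list was -0.62 on DKO 1 and -1.08 on DKO 2. It was 0.67 on DKO 3, and 1.17, 0.0046 and -0.065 on the WT arrays. Of the 16 markers, 15 had a lower mean, again beside 29.8% of all tested genes. Their median was -0.66, with Csf1r at -2.04 and Tyrobp at -1.96. The 15 B lineage markers summed to 107779 to 147150 in DKO and 106008 to 169516 in WT. By mean 9 were higher and 6 lower, where 8862 of 12627 tested genes were higher. Dntt (2.17) and Blnk (1.18) had the smallest p, while Ms4a1 (-1.69) and Cd22 (-1.62) differed the other way. The part of these cell types in the values of Csf3r, Il6ra, Cebpd, Klf4 and Gfi1 was not tested.

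**Figure D3:**
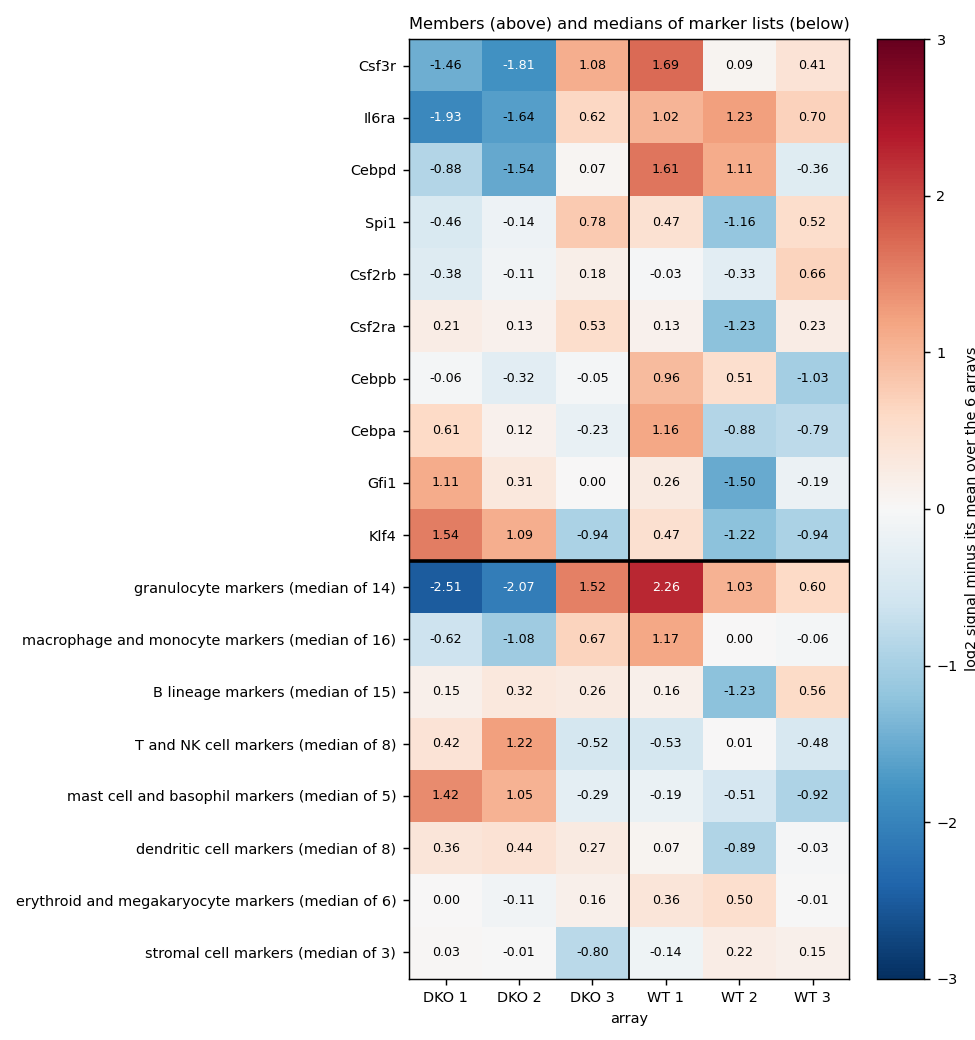
Centred log2 signal minus its mean over the 6 arrays (colour and number), for the representative probe set of each member above the thick line and for the median of each marker list under it, with DKO arrays left of WT arrays. On DKO 1, DKO 2 and DKO 3, Csf3r is at -1.46, -1.81 and 1.08, the granulocyte median at -2.51, -2.07 and 1.52, and Klf4 at 1.54, 1.09 and -0.94.

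Markers of other cell types are set beside the 8862 of 12627 tested genes with a higher mean in DKO. The 8 T and NK cell markers summed to 1019, 1667 and 827 on the DKO arrays, against 891, 2721 and 951 on the WT arrays, with 5 of 8 higher in mean (Klrd1 1.65, Cd3d 2.34). The 5 mast cell and basophil markers summed to 1378, 1056 and 233 on the DKO arrays, against 469.7, 715 and 178 on the WT arrays, with 5 of 5 higher (Mcpt8 1.51, Gata2 1.03). The highest mast cell sums were those of DKO 1 and DKO 2. Of 8 dendritic cell markers 6 were higher (Itgax 1.06, Batf3 1.09), with sums of 2325 to 4853 in DKO and 2409.9 to 3739.8 in WT. The counts of the dendritic and the T and NK lists are near or under the share of all tested genes. Of 6 erythroid and megakaryocyte markers 4 were lower (Ppbp -2.03, Pf4 -1.96), with sums of 523 to 4495 in DKO and 2516 to 5428 in WT. Of 3 tested stromal markers 2 were lower (Sparc -0.61, Pdgfra -0.41), with sums of 77.4 to 147 in DKO and 128 to 387 in WT. In the fit of all 6 arrays 0 genes of these lists passed, and the named ones had a limma adjusted p of 0.822.

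Genes that PU.1 and C/EBP factors are known to bind and drive in myeloid cells had mostly lower means in DKO. Of 22 listed, 21 were tested, 16 of them lower and 5 higher, where 3765 of 12627 tested genes were lower. The list's median difference was -0.66 and that of all tested genes 0.30. Of the 21 genes, 0 passed at the limma adjusted threshold. At an unadjusted limma p at or under 0.05, 4 were lower and 0 higher, where 1.31% and 1.81% of all tested probe sets were. Tlr4, the lipopolysaccharide receptor gene, differed by -1.03 (limma standard error 0.40, adjusted p 0.822) and Csf1r by -2.04 (0.81, 0.822). Relative to the average array, the list's median was -0.58, -0.85 and 0.95 on the DKO arrays, against 0.95, -0.21 and 0.38 on the WT arrays, low on DKO 1 and DKO 2 as Csf3r was. Without WT 2, 20 of 21 were lower, with a median of -0.78. In that fit 6104 of 12627 tested genes were lower, and their overall median was 0.011. Without WT 2 and DKO 3, 21 of 21 were lower, where 6811 of 12627 tested genes were. There 7 of the 21 passed, where 279 of 12627 tested genes passed as lower and 407 as higher. The 7 were Mpo, Prtn3, Ltf, Lcn2, Camp, Ncf1 and Cybb, genes of granule proteins and of the phagocyte oxidase, and 5 of them are also granulocyte markers. In the same fit 10 of 14 granulocyte and 4 of 16 macrophage markers passed as lower, 2 of 6 erythroid and megakaryocyte markers as lower, 4 of 8 T and NK and 4 of 5 mast cell markers as higher, and 2 of 15 B lineage markers as higher and 4 as lower. Of the 22 listed genes, 13 are also on the granulocyte or macrophage lists.

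In the other pathway lists most genes had higher means, as 8862 of the 12627 tested genes did. Without WT 2, 6523 of the 12627 did, and the median of all tested genes was 0.011. Of 23 tested transcription factors of myeloid cells other than the members, 21 were higher (median 0.66), and without WT 2 15 were (median 0.12). Irf8, which directs monocytes and dendritic cells, had 8655, 9656 and 5391 on the DKO arrays, against 4059, 1845 and 4984 on the WT arrays. Its DKO arrays were all above its WT arrays, and the difference of 1.51 (limma standard error 0.66, adjusted p 0.822) was 0.75 without WT 2. Meis1, a homeobox gene of progenitors, differed by 0.77 (0.35, 0.822). Of 19 other receptors 14 were higher (median 0.38, and 0.0055 without WT 2), with Il3ra, the interleukin-3 binding chain, at 0.79 and Csf1r at -2.04. Of 5 ligand genes tested out of 12 listed 4 were higher (median 0.22), with Lif at 0.74 and Csf1 at 0.68, and with quantile normalization 2 were. Of 18 signal transducers 17 were higher (median 0.44), and without WT 2 10 were (median 0.10), with Socs2, an inhibitor of cytokine signals, at 0.80 and the myeloid kinase gene Fgr at -0.61. With all 6 arrays 0 genes of these 4 lists passed with limma. At an unadjusted limma p at or under 0.05 only receptors were counted, 1 higher and 2 lower. Of all tested probe sets 1.81% were higher and 1.31% lower at that threshold. Without DKO 3 and WT 2, Irf8 passed as higher (0.92, limma adjusted p 0.0377). In that fit Klf2, a factor of quiescent cells (-1.60, 0.0171), and Ptpn6, a phosphatase that dampens cytokine signals (-1.54, 0.0265), passed as lower.

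**Figure D4:**
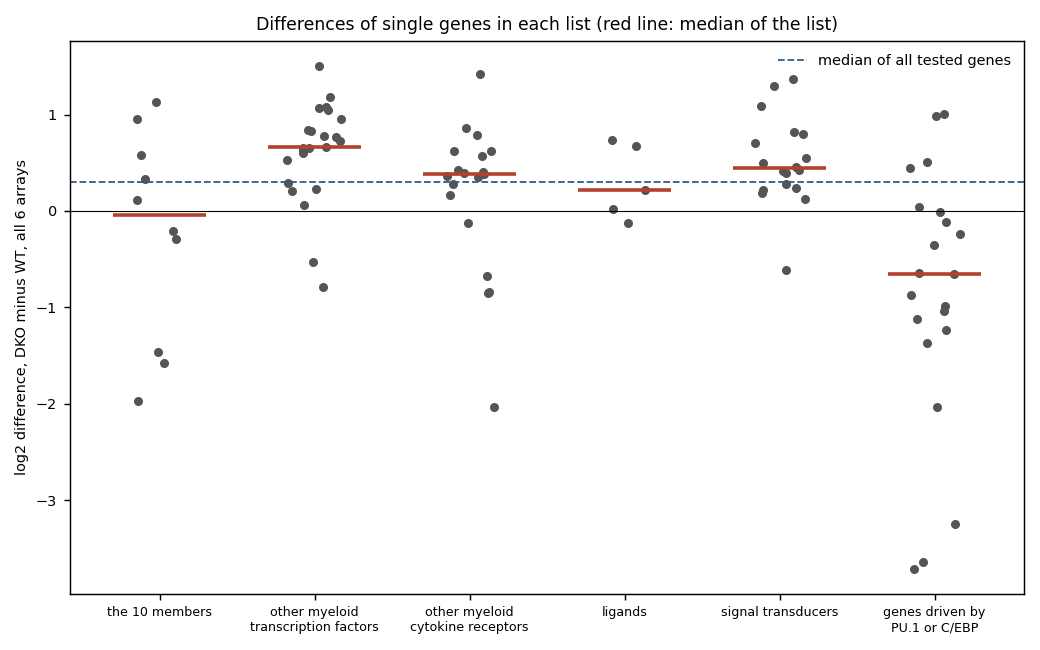
Log2 difference, DKO minus WT, of the representative probe set of each tested gene (points) in the 10 members and 5 pathway lists, from all 6 arrays, with list medians in red and the median of all tested genes dashed at 0.30. The members spread from -1.97 to 1.13, and 3 genes driven by PU.1 or C/EBP factors, Ltf, Lcn2 and Camp, lie under all other points.

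Some members were alike and some opposed in their values over the arrays, given as a description over arrays that share WT 2. Csf3r correlated with Il6ra at r = 0.882 and with Cebpd at 0.826, and Cebpd with Il6ra at 0.840. Gfi1 correlated with Klf4 at 0.819, and Klf4 with Il6ra at -0.844. Over the 5 arrays without WT 2 these values were 0.962, 0.912, 0.802, 0.869 and -0.805. Spi1, at 0.200 with Il6ra over 6 arrays, was at 0.937 over 5, so this value depended on WT 2. Other pairs changed as well. Spi1 with Csf2ra went from 0.838 to 0.561, Gfi1 with Csf2ra from 0.794 to -0.306 and Spi1 with Gfi1 from 0.384 to -0.859.

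The genes most like each member were taken by Pearson's r among the 12627 tested genes, where so few arrays give high values for many genes. Over 6 arrays they were S100a8 (0.993), Bco2 and S100a9 for Il6ra, Pid1 (0.995), Adgre1 and Hacd4 for Csf3r, and Basp1 (0.992), Mcemp1 and Evi5 for Cebpd. S100a8 and S100a9 are neutrophil genes and Adgre1 encodes the macrophage marker F4/80. They were Ifitm2 (0.995), Ramp3 and Kctd12b for Klf4, Zfp949 (0.996), Dag1 and Ccdc107 for Gfi1, and Zc3h18 (0.999), Tsr2 and Marchf8 for Spi1. For Cebpa they were Slc44a1 (0.975), Agpat2 and Celf4, for Cebpb Mogat2 (0.987), Ier3 and Elovl7, for Csf2ra Usp4 (0.999), Nit1 and Kri1, and for Csf2rb Fbxo46 (0.982), Mllt11 and Rgs18. Without WT 2, 3 of these 30 genes were named again for the same member, Pid1, Slc44a1 and Mogat2. The 5 arrays gave Slc16a10, Pid1 and Clec4a2 for Csf3r, D830012I24Rik, Ppbp and Aco1 for Il6ra, Slc5a3, Il1f9 and Neurod2 for Cebpd, Abcc5, Zeb2 and Fndc3b for Klf4, and Aplp2, Cd99l2 and Setd1a for Gfi1. They gave Ptdss1, Glo1 and Ero1a for Spi1, Tgfbr3, Slc44a1 and Rbpms for Cebpa, Sort1, Dpysl5 and Mogat2 for Cebpb, Cept1, Snx3 and Zfp433 for Csf2ra, and Faap20, Stt3a and Armc8 for Csf2rb.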

How the data were processed

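Biotin-labelled total RNA was measured on 6 oligonucleotide arrays, per the labels' protocols. The deposited table gives 1 intensity per probe set and array on a linear scale, from MAS5 according to the submitters' processing notes. The mean of each array, after dropping 2% of values at either end, was 500.003 to 500.005. Groups follow the sample titles. Of 45037 probe sets, 34945 had a single symbol in the array's annotation, and gene identifiers placed 34741 of them in the gene table of assembly GRCm38.p6.

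Intensities were taken as log2(intensity + 16) and centred on each array's median. limma 3.58.1 (R 4.3.3) tested the 27022 probe sets whose mean exceeded percentile 40, two-sided, with genotype alone in the model, a variance trend and Benjamini-Hochberg adjustment over all of them. The fit was tested on simulated arrays with the same spread for all probe sets and no outlying array. That test does not show how the fit behaves with arrays such as WT 2 and DKO 3. Lists are described by counts and medians. Named were all member probe sets, Cry1, Cry2, S100a8, Csf1r, in each list the called genes or else the 2 with the smallest p, and the 3 genes most correlated with each member. Csf2rb2, Ms4a1, Cd22 and the genes called without DKO 3 and WT 2 or lowest in the plot of the lists were named after their values were seen. Members, lists and tests were chosen with earlier results of these data known. A probe set listed with both Csf2rb and Csf2rb2 was left out. The small number of arrays limits precision. Tables and plots came from Python 3.11.15 with numpy 2.4.6, pandas 2.3.3, scipy 1.17.1 and matplotlib 3.10.9. Alternatives were other normalizations, pseudocounts (1, 64), filters (none, percentile 60) and variances, array weights, arrays left out and a replicate block.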

Additional observations from a re-analysis of the deposited data

How the results depend on the processing

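limma called 2 of 27022 probe sets with all 6 arrays, 0 with quantile normalization, without centring, with a pseudocount of 1 or with the replicate block, 1 with a filter at percentile 60 or robust variances, 5 without WT 2 under quantile normalization, 1099 without DKO 3 and WT 2, 8129 with array weights, and 0 to 7 with 1 array left out. In the settings with 0 calls, 132 to 976 probe sets were higher and 148 to 535 lower at an unadjusted p at or under 0.05. Array weights were 30.8 for WT 1 and 0.0526 to 3.18 for the others, their estimation stopped before it converged, and 8 of 16 member probe sets were called there. The labels do not say that the replicate numbers pair arrays, so they were not taken as pairs, and the replicate block called 0 members. Deviations from the genotype means correlated at -0.15, -0.0019 and 0.33 for arrays of the same number. These values cannot decide on pairing, because WT 2 enters the WT mean. Members lower in DKO numbered 5 of 10, 3 by the mean of a gene's probe sets, and 4 to 7 in the other settings that tested all 10. Of 268 member differences under other settings, 25 turned sign, and the cause was not tested. Spi1 was -0.24 with quantile normalization, -0.20 without centring, -0.60 with array weights, -0.80 without DKO 3 and WT 2, -0.45 without WT 2 under quantile normalization and -0.44 to 0.41 with 1 array left out (-0.25 without DKO 3). Cebpa was -0.93 with array weights, -0.014 without WT 2 under quantile normalization and -0.022 to 1.00 with 1 array left out. The representative of Cebpb was -0.88 to 0.11 with 1 array left out, and its second probe set -0.11 to 1.99, and -0.90 with array weights, -0.17 without DKO 3 and WT 2 and -0.12 without WT 2 under quantile normalization. The second of Klf4 was -0.032 with quantile normalization and -0.18 to 1.02 with 1 array left out, and the representative of Csf2ra was -0.0089 without DKO 3 and WT 2. The representative of Csf2rb was -0.42 to 0.075 with 1 array left out, and its second probe set -0.35 to 2.28, and -0.60 without DKO 3 and WT 2 and -0.34 without WT 2 under quantile normalization. The second of Il6ra was -0.18 with quantile normalization, -0.25 without centring and -0.054 to 0.16 with 1 array left out. Csf3r, Gfi1, both Cebpd probe sets, the representatives of Klf4 and Il6ra and the second of Csf2ra kept their sign in every setting that tested them. The filter at percentile 60 left out Cebpa, Csf3r and the second probe sets of Cebpb and Cebpd. Low signals, as of Csf3r on DKO 1 and DKO 2, limit how large a difference can be measured.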

Other observations

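On WT 2 the probe sets of 1 gene stood at opposite ends of the deposited intensities in several members, as in many other genes of the array. Of the 6 members with 2 tested probe sets, 3 had WT 2 as the highest array by 1 probe set and the lowest by the other, namely Cebpb (1921 and 14.6), Csf2rb (7962 and 87.9) and Csf2ra (461 and 308). This was so in 1108 of 3287 genes with 2 tested probe sets, 33.7%. Both Cebpd probe sets (539 and 242) and both of Il6ra (749 and 236) read highest on WT 2.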
